A study of Caenorhabditis elegans with 2 samples.

Results

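The cytosolic chaperonin and the CDC-48 ATPase of Caenorhabditis elegans are encoded by the 10 genes cct-1 to cct-8, cdc-48.1 and cdc-48.2, and FOS-1 binding was described here at these loci. The 10 genes, of 19973 nuclear protein-coding genes in the annotation, were selected by name from their function. They were proposed with binding results from the same data in view, and the values that describe their calls are therefore given without tests. FOS-1 is the worm's Fos protein, a transcription factor with a basic leucine zipper (bZIP), and it was mapped by chromatin immunoprecipitation and sequencing (ChIP-seq) in whole L2 larvae of both sexes. There are 2 biological replicates of 1 group, and no other genotype, treatment or stage to compare with.

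All animals were of the strain OP304, which carries the mutation unc-119(ed3) on chromosome III and the transgene wgIs304. The transgene supplies FOS-1 fused to the green fluorescent protein eGFP, and the labels list no mutation in the animals' own fos-1 gene. The labels give the age as unknown and name fos-1 as the antibody's target. Chromatin came from whole larvae, so binding in a few cells and weak binding in many cannot be told apart.

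The chaperonin CCT, also called TRiC, is a double ring of related subunits that encloses newly made proteins while they fold. Actin and tubulin are its best known clients, and the co-chaperone prefoldin hands them over. CDC-48, known as p97 or VCP in mammals, is an AAA ATPase ring that pulls ubiquitin-tagged proteins out of membranes, complexes and chromatin, often on their way to the proteasome. In the worm it is encoded by a pair of paralogous genes. Fos proteins bind DNA together with another bZIP protein, classically Jun, at the AP-1 site TGACTCA or TGAGTCA.

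Each call in the deposited peak lists has a signal value from the authors' peak caller, and calls were ranked by that signal, with rank 1 the highest. One list was thresholded by the irreproducible discovery rate (IDR), which weighs how alike calls rank in repeated data. It held 7446 calls with signals from 33.94 to 702. Relaxed lists, which also hold weak calls, numbered 29339 calls for replicate 1, 28938 for replicate 2 and 28259 for both pooled. The IDR calls were the 7446 of highest signal in the pooled list, and a call among them need not be in both replicates' lists. Signal is not normalized between lists, so the position in a list is given as the top percent, that is, rank as a percentage of all its calls. How deeply the libraries were read is unknown. A promoter call is one whose summit, its point of highest signal, lay from 1000 bp upstream to 250 bp downstream of a protein-coding start. Many worm transcripts are trans-spliced, and an annotated start may then lie downstream of the place where transcription begins.

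The DNA under the strongest promoter calls is shown first, since the description below turns on it. Positions are on WBcel235, the assembly of ce11, and the sequence is that of RefSeq for this assembly. Each window reaches 50 bases to either side of the summit and is written on the strand of the gene, so that the gene lies to the right. Capitals mark matches to searched patterns. In the first 5 windows they are a pair of heat shock units facing each other or back to back (GAANNTTC or TTCNNGAA, where N is any base), and the repeat GAGAGAG in the cdc-48.2 window. The cct-7 window has no match.

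cct-1 (chrII:8185177-8185277, plus strand): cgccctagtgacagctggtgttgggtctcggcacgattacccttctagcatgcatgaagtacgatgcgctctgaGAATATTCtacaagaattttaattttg
cct-2 (chrII:8927389-8927489, plus strand): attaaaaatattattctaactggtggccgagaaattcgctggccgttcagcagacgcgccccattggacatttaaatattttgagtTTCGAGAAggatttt
cct-5 (chrIII:4508507-4508607, minus strand): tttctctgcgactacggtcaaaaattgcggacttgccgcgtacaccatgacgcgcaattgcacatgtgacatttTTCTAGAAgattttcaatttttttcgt
cct-6 (chrIII:5855913-5856013, minus strand): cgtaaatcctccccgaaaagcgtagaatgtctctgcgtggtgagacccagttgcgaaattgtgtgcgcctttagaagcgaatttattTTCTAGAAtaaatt
cct-8 (chrIV:1094283-1094383, minus strand): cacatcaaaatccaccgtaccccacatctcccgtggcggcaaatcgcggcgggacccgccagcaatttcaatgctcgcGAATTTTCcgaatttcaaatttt
cct-7 (chrV:1871888-1871988, plus strand): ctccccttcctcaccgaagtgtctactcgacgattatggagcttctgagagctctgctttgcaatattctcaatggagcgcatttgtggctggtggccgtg
cdc-48.2 (chrII:8138138-8138238, plus strand): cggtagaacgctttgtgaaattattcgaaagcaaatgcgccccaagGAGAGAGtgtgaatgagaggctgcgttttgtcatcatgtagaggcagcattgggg

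The cdc-48.1 call had the second highest signal of the IDR list and is shown over its whole length of 264 bases. Its single capitalised match is again a heat shock pair, which lies 86 to 93 bp from the summit on the gene side.

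cdc-48.1 (chrII:10563438-10563701, minus strand): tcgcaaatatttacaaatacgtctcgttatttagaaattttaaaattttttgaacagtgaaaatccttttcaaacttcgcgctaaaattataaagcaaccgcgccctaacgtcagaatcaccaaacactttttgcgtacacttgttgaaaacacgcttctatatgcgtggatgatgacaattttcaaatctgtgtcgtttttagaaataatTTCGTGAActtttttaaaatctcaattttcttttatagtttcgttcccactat

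FOS-1 was called at the promoters of 8 of the 10 genes in the IDR list, where 23.4% of all protein-coding genes had a promoter call. The genes with a call were cct-1, cct-2, cct-5, cct-6, cct-7, cct-8, cdc-48.1 and cdc-48.2, and those without were cct-3 and cct-4. In the relaxed lists 9 of the 10 genes had a promoter call in the pooled data and in replicate 1, and 8 in replicate 2. Taking from each replicate its own 7446 strongest calls, 8 had one in replicate 1, against 23.2% of all genes, and 7 in replicate 2, against 22.6%. The full relaxed lists reach far more genes, with 46.6% of all protein-coding genes in the pooled list, 47.4% in replicate 1 and 47.6% in replicate 2. The count of 8 was part of what brought these genes to notice, and nothing is read from it beyond the description.

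The signal spread widely among the genes. The median signal of the strongest promoter call was 92.23 over the 8 genes and 67.65 over the 4681 genes of the genome with an IDR promoter call. Ranked by that signal among the 4681 genes, cdc-48.1 was at position 2, cct-1 at 545, cct-8 at 809 and cct-7 at 840. The other genes followed with cct-6 at 2231, cct-2 at 3074, cct-5 at 3765 and cdc-48.2 at 4653. The set therefore runs from nearly the top of the list to nearly its end.

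**Figure D1:**
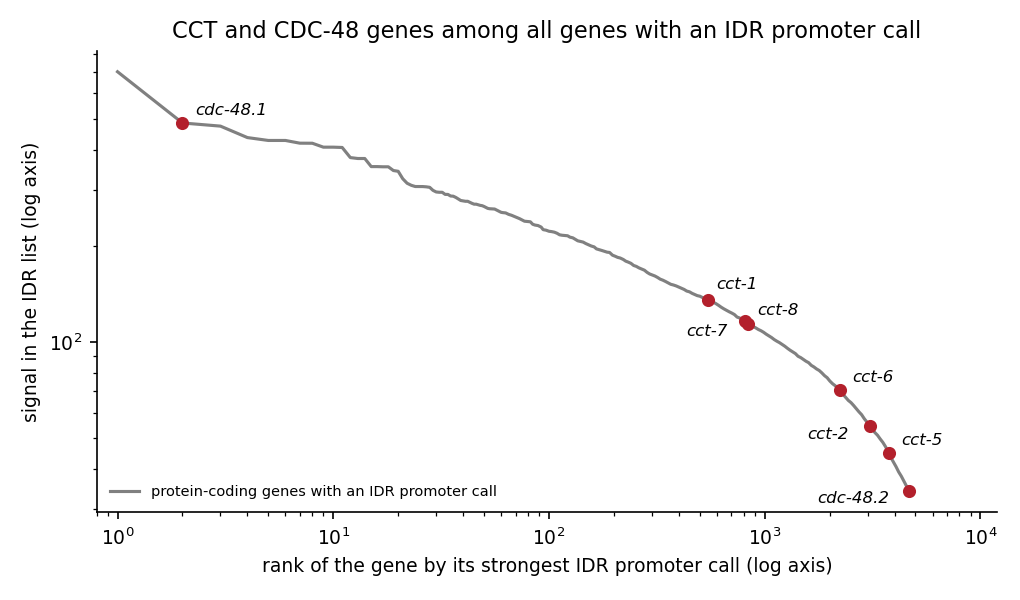
Signal of the strongest IDR promoter call (log axis) against the gene's rank by that signal (log axis), for the 4681 protein-coding genes with such a call (line) and the 8 CCT and CDC-48 genes among them (points). cdc-48.1 is at rank 2 and cdc-48.2 at rank 4653, with the CCT genes between 545 and 3765.

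The highest signal was at cdc-48.1, which encodes one of the paired CDC-48 ATPases. The gene lies on chromosome II from 10560036 to 10563407 on the minus strand, and the call, from 10563438 to 10563701, is intergenic with its summit 169 bp upstream of the start. Its signal was 314.3 in replicate 1, 175.5 in replicate 2 and 485 pooled. It ranked 4 of 29339 in replicate 1 and 2 of 28938 in replicate 2. Both replicates therefore placed it among their strongest sites, with summits 22 bp apart. The only non-coding gene annotated within 1000 bp of the summit is C06A1.9, a snoRNA gene inside cdc-48.1, at 512 bp.

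By signal in the 2 replicates' own lists, the genes outside the set closest to cdc-48.1 were jun-1, rib-2 and tbb-1, among 7717 protein-coding genes with a promoter call in both. Closeness was the Euclidean distance of log10 signal, at 0.0858 for jun-1 and 0.0921 for the others. jun-1 encodes the worm Jun protein and had signals of 294.3 and 145.6. rib-2, an exostosin-like gene of heparan sulfate synthesis, and tbb-1, which encodes a beta-tubulin, share 1 call with signals of 284.6 and 145.4.

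The paralog cdc-48.2 was at the other end. It lies on chromosome II from 8138496 to 8141230 on the plus strand, and its IDR call, with a summit 308 bp upstream at 8138188, had a signal of 34.17 pooled and rank 7408 of the 7446. That is just inside the list, whose lowest signal is 33.94. In replicate 1 the call had a signal of 35.18 and rank 5061. Replicate 2 had no call there, and its only promoter call at the gene, with a signal of 9.8 and rank 8492, had its summit 823 bp upstream, 515 bp from that of replicate 1. The call at cdc-48.2 thus rests on replicate 1, and the gene drops out of the count when the 7446 strongest calls of replicate 2 are used alone.

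Among the chaperonin genes, cct-1, cct-7 and cct-8, which encode the subunits alpha, eta and theta, had the promoter calls of highest signal. At cct-1, on chromosome II from 8185443 to 8187601, the signal was 105 in replicate 1, 31.11 in replicate 2 and 135.5 pooled. At cct-8, on chromosome IV from 1087108 to 1093920, it was 79.69 in replicate 1, 35.22 in replicate 2 and 115.9 pooled. At cct-7, on chromosome V from 1872246 to 1875505, it was 80.76 in replicate 1, 31.65 in replicate 2 and 113.9 pooled. These genes stood in the top 6.4% of the pooled relaxed list and of each replicate's list, but their order turned between the replicates. In replicate 1 cct-1 was the highest, at the top 1.77%, with cct-7 at 3.92% and cct-8 at 4.07%. In replicate 2 cct-8 was the highest, at the top 4.88%, with cct-7 at 6.18% and cct-1 at 6.4%. The 3 genes are therefore not ordered beyond the spread between replicates.

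A lower group was formed by cct-6, cct-2 and cct-5, which encode the subunits zeta, beta and epsilon. At cct-6, on chromosome III from 5853530 to 5855687, the signal was 43.34 in replicate 1, 25.17 in replicate 2 and 70.53 pooled. At cct-2, on chromosome II from 8927741 to 8929815, it was 31.93 in replicate 1, 18.15 in replicate 2 and 54.32 pooled. At cct-5, on chromosome III from 4499188 to 4508114, the promoter call had 29.73 in replicate 1, 11.8 in replicate 2 and 44.86 pooled. Here the order was the same in both replicates, at the top 13.2 and 9.41% for cct-6, 19.3 and 15.3% for cct-2, and 20.7 and 24.7% for cct-5, replicate 1 first. In each replicate these 3 genes were below the group of cct-1, cct-7 and cct-8.

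Binding at cct-4 and cct-3, the genes of the subunits delta and gamma, was weakly called or not called. cct-4, on chromosome II from 8283667 to 8285711, had a pooled promoter call with a signal of 11.93 and rank 15837, whose summit was 111 bp upstream of the start. In replicate 1 the signal was 11.66 with rank 12588, and replicate 2 had no promoter call. cct-3, on chromosome II from 2233540 to 2243539, had no promoter call in any of the 4 lists, and no IDR call in its span plus 5 kb. The calls there were all weak, with pooled signals of 8.19 at most. A missing call does not show that the factor is absent.

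**Figure D2:**
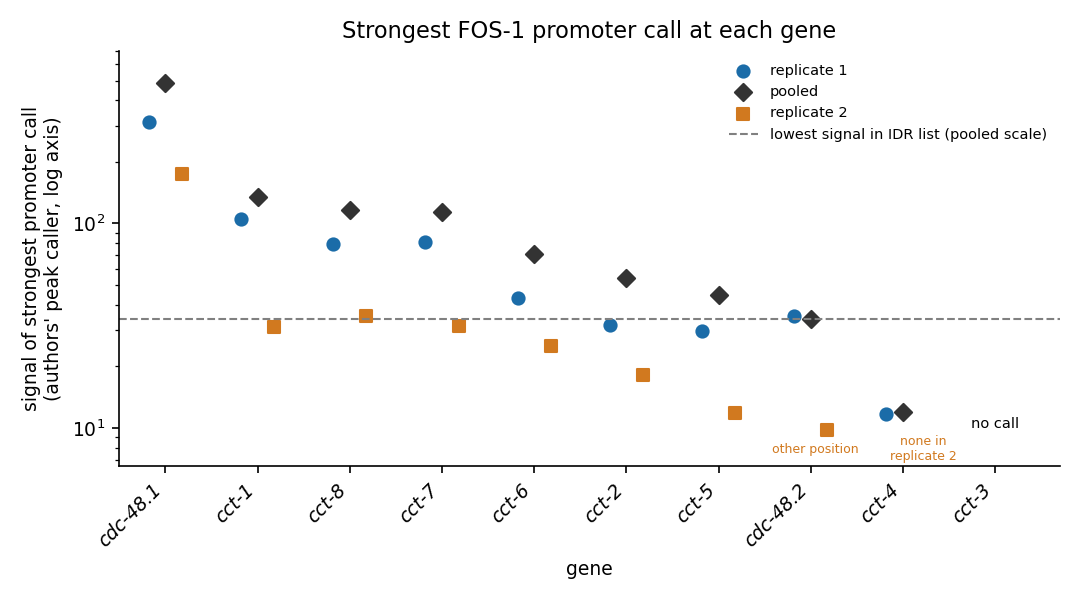
Signal of the strongest promoter call of each gene (log axis, as given by the authors' peak caller) in replicate 1, replicate 2 and the pooled list, with genes ordered by the pooled signal. Replicate 1 is above replicate 2 at all 8 genes with a call in both, the cdc-48.2 call of replicate 2 is at another position, cct-4 has none in replicate 2, and cct-3 has no promoter call.

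The calls lay at nearly the same places in both replicates, while their signals differed. For the 7 genes other than cdc-48.2 with a call in both replicates, the summits lay 13 to 43 bp apart, against a median of 25 bp (quartiles 11 and 47.25) over 7132 matched calls among the strongest of replicate 1. The ratio of the signal in replicate 1 to that in replicate 2 ran from 1.72 at cct-6 to 3.38 at cct-1, where the median over the same matched calls was 2.32 (quartiles 1.83 and 3.09). Those calls were chosen by their signal in replicate 1, and over all 16458 matched calls the median was 1.92 (quartiles 1.33 and 2.71). The ratio of cct-1 is above the upper quartile of either set. Those of cct-2, cct-6 and cdc-48.1, at 1.76, 1.72 and 1.79, are below the lower quartile of the first set and inside the quartiles of all matched calls.

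The 8 summits of the IDR list all lay upstream of the annotated start, from 169 bp at cdc-48.1 to 443 bp at cct-5. Their median was 305 bp upstream, and that of all 4681 genes was 212 bp upstream, with 91.8% of genes having the summit upstream. None of the 8 summits was inside an annotated gene. The call at cct-1 was 143 bp wide and that at cct-8 was 87 bp, while 5 others had the median width of the list, 344 bp.

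At 6 of the 8 genes the call lay between a pair of genes transcribed away from each other, so that its summit fell in the promoter windows of both. Of all 4222 IDR promoter summits, 880 or 20.8% lay in the windows of more than 1 gene. The cct-1 summit was 204 bp upstream of mig-5, a dishevelled gene of Wnt signalling, and the cct-6 summit was 55 bp upstream of alh-9, annotated as an aldehyde dehydrogenase gene. That alh-9 start is from Ensembl, and by the RefSeq start, 1246 bp away, the call would not be shared. The summits at cct-2, cct-5, cct-7 and cct-8 were 888 bp upstream of B0457.2, 298 bp upstream of F25F2.1, 131 bp upstream of T10B5.4 and 208 bp upstream of Y55F3AR.2. At cct-1, cct-5, cct-6, cct-7 and cct-8 the summit was nearer to the start of the neighbour than to that of the chaperonin gene. For cct-6 this holds only by the Ensembl start of alh-9, and by the RefSeq start the summit was nearer to cct-6. Which of the paired genes a call belongs to cannot be told from these data. The cct-7 summit also lay 42 bp from T10B5.13 and the cct-8 summit 124 bp from Y55F3AR.4, both annotated as non-coding RNA genes. Because the call is shared, mig-5 has the same values as cct-1, and the next closest genes to it by the measure above were ugt-44 at a distance of 0.00459 and nmat-1 at 0.00745.

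GATA sites, the commonest of the 8 patterns searched, were not found in any of the 8 promoter calls. The GATA site was searched on both strands as AGATAA, with TGATAA as its second form and with AGATAG and likewise TGATAG as forms that end in another base. Within 50 bp of the summit, 50% of the 4222 IDR promoter summits had such a site, against 0 of these 8. Over the full length of the call the share was 72.6% of promoter summits, and again 0 of the 8, although at cdc-48.1 a GATA site straddled the gene-side edge of the call. In the 500 bp before the start, 5 of the 10 genes had a GATA site, against 71.4% of all protein-coding genes. They were cct-1, cct-2, cct-3, cdc-48.1 and cdc-48.2. The AP-1 site was at 3.51% of promoter summits and at 0 of the 8, also over the full calls, where 7.15% had one. The only AP-1 site in the promoter windows of the 10 genes, TGACTCA, lay at cct-1, 161 to 167 bp from the summit toward the gene and outside the call. The CRE site TGACGTCA was at 0.947% of promoter summits, the E-box CACGTG at 3.81% and GACGCAGA at 5.85%, and each at 0 of the 8. Of the extended GATA site TGATAAG, which contains the GATA site, there was also none, with 21.5% at all promoter summits. The repeat GAGAGAG was found at 1 of the 8, cdc-48.2, where it covers the summit, against 8.93%. That no match was found says only that these letters are not in these windows.

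Most of the promoter calls held a heat shock pair. The heat shock factor HSF-1, which drives many chaperone genes, binds as a trimer to repeated units of GAA and its complement TTC in alternating direction. A pair of such units, GAANNTTC or TTCNNGAA, lay within 50 bp of 5 of the 8 summits, and of 6.04% of all promoter summits. Among the promoter summits without a GATA site the share was 6.07%. The pattern was chosen with earlier results of these data known, and the contrast was not tested. The 5 were cct-1 with GAATATTC, cct-2 with TTCGAGAA, cct-5 and cct-6 both with TTCTAGAA, and cct-8 with GAATTTTC. In all 5 the pair lay on the side of the chaperonin gene, beginning 24 bp from the summit at cct-1 and cct-5, 28 bp at cct-8, 36 bp at cct-2 and 37 bp at cct-6. These are the capitals near the right end of the first 5 windows printed above.

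Within 100 bp of the summit cdc-48.1 joined them, which made 6 of 8 against 15.5% of promoter summits. Over the full call cct-7 was added with TTCGAGAA, 94 to 101 bp from the summit on the gene side, and the count was 7 of 8 against 26.6%. The full calls also held GAATTTTC at cct-7, on the gene side, and TTCCCGAA at cct-6, on the side of the summit away from the gene. The remaining gene was cdc-48.2, the one whose call rests on replicate 1. In the 500 bp before the start, where the pattern is common, 9 of the 10 genes had a pair as did 9656 of the 19973 protein-coding genes. cct-3 and cct-4, which have no IDR call, were among the 9, with a pair 22 to 15 bp and 166 to 159 bp upstream of the start. No measurement of HSF-1 is among these data, and a match is not a bound site.

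**Figure D3:**
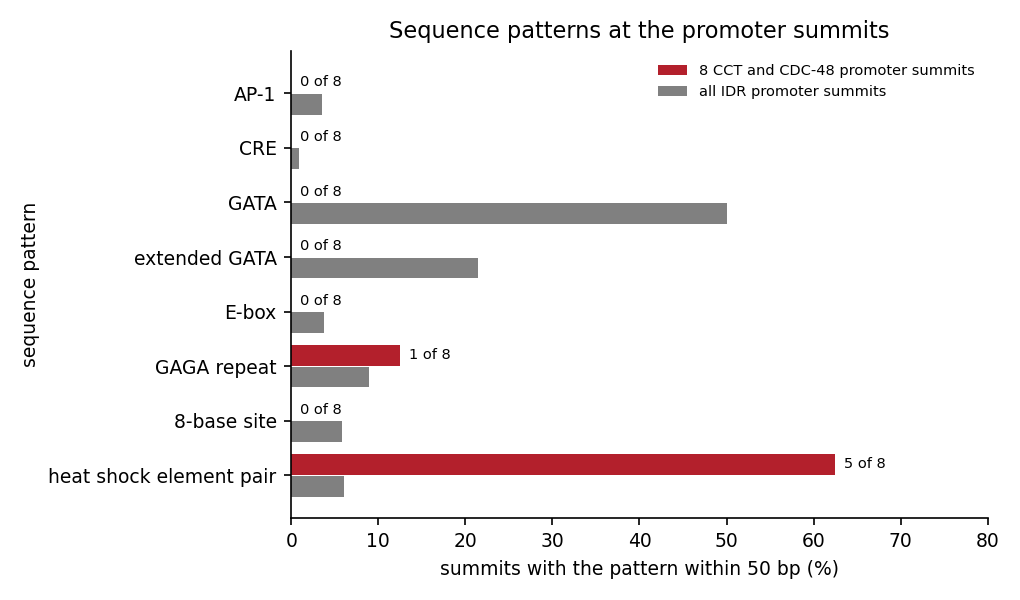
Share of summits (%) with each sequence pattern within 50 bp, on either strand, for the 8 promoter summits of the CCT and CDC-48 genes (red, with the count) and for all 4222 IDR promoter summits (grey). The GATA site is at 50% of all promoter summits and at 0 of the 8, and the heat shock pair is at 6.04% and at 5 of the 8. The patterns were chosen with earlier results of these data known, and no test was made.

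Outside the promoter windows of these genes, 16 more IDR calls lay in the gene spans plus 5 kb, which makes 24 calls in all. By this wider rule the count of genes was again 8 of 10, against 57.0% of all protein-coding genes, so this count says little. In the pooled relaxed list all 10 had a call, where 79.5% of genes did, as in replicate 1 with 80.8% and replicate 2 with 88.2%. Among the 7446 strongest calls of each replicate, 8 of the 10 had one in both, beside 56.8% of genes in replicate 1 and 56.0% in replicate 2. The calls were unevenly spread, with 8 at cct-5, 6 at cdc-48.1, 3 at cct-2, 2 each at cct-7 and cdc-48.2, and 1 each at cct-1, cct-6 and cct-8. As many as the 8 of cct-5 were found at 0.14% of protein-coding genes, and as many as the 6 of cdc-48.1 at 0.666%. Longer genes have more room for calls, but whether length bears on these counts was not tested. The span of cct-5 is 8927 bp. By the same rule cct-3, with 10000 bp, had 0 IDR calls, cct-8, with 6813 bp, had 1, and cdc-48.1, with 3372 bp, had 6.

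The second intron of cct-5 held 4 IDR calls, and each had a higher signal than the promoter call of the gene. The summits, on chromosome III, were at 4506925, 4506382, 4504571 and 4503071, which is 1189, 1732, 3543 and 5043 bp downstream of the start. The call at 4506925 had a signal of 96.47 in replicate 1, 38.69 in replicate 2 and 134.1 pooled. The call at 4503071 had 91.76 in replicate 1, 43.3 in replicate 2 and 131.1 pooled. These signals are close to that of the cct-1 promoter call. The call at 4506382 had 59.91, 26.24 and 85.65 in the same order, and that at 4504571 had 51.79, 11.82 and 63.76. All 4 were called in both replicates.

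The pair of strongest intronic calls of cct-5 is shown for comparison with the promoters. The capitals are an AP-1 site in the first, 30 to 36 bp from the summit, and a GATA site in the second, 15 to 20 bp from the summit.

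cct-5 intron (chrIII:4506875-4506975, minus strand): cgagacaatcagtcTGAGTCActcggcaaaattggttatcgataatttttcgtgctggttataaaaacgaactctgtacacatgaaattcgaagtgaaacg
cct-5 intron (chrIII:4503021-4503121, minus strand): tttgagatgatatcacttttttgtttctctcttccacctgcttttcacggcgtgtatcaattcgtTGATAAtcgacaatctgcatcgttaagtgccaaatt

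The downstream calls counted with cct-5 lay in another gene. Summits at 4494690, 4494895 and 4496274 were in the second intron of atf-7, which encodes a bZIP factor of the ATF family that acts in immunity below the p38 kinase PMK-1. Their pooled signals were 94.87, 50.45 and 81.41. The first had a CRE site, TGACGTCA, 2 to 9 bp from its summit, and the others GATA sites. Replicate 2 had no separate call at 4494690, with its nearest summit at 4494870. The summits at 4494690 and 4494895 also lay 240 and 445 bp upstream of an annotated atf-7 start.

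The further calls at cdc-48.1 were downstream of the gene. The strongest of the 5, with its summit at 10555664, had a signal of 60.24 in replicate 1, 44.91 in replicate 2 and 105.5 pooled, and its nearest coding start was that of mnk-1, a MAP kinase-interacting kinase gene, at 620 bp. The others had pooled signals from 35.78 to 55.32, and the weakest, at 10559756, had no matching call in replicate 2. At cdc-48.2 a call of signal 57.4 lay 13 bp upstream of the start of ints-11, a gene of the Integrator complex. At cct-2 a call of 47.89 lay in enol-1, the enolase gene, and one of 35.51 in B0457.6. At cct-7 a call of 78.38 lay in the first exon of T10B5.3, outside its coding part. Within 50 bp of the summit, 8 of the 16 calls outside these genes' promoter windows had a GATA site, near the 52.9% of all IDR summits. An AP-1 site was at 1 of them, beside 3.55% of all IDR summits, and a CRE site at 1, beside 0.819%. Heat shock pairs were at 0 of the 16 within 50 bp, at 2 within 100 bp and at 4 over the full call. Of all IDR summits, 5.98%, 14.7% and 25.5% had a pair in the same windows. GATA sites were thus missing from the 8 promoter calls, while the other calls at these loci had them about as often as all IDR summits. The contrast was not tested. Some of those other calls lay in the promoter windows of neighbouring genes, as at ints-11, enol-1 and T10B5.3.

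**Figure D4:**
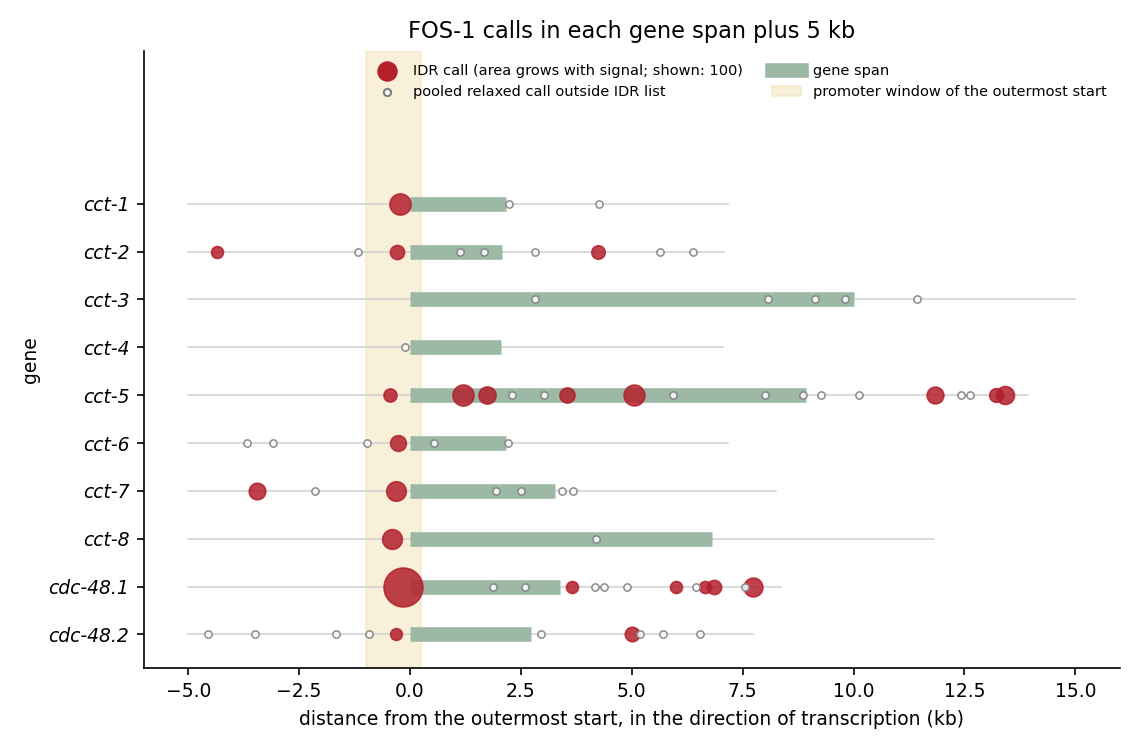
FOS-1 calls in the span of each gene plus 5 kb, by distance of the summit from the outermost start in the direction of transcription (kb). Red points are IDR calls with an area that grows with the pooled signal, open points are other pooled relaxed calls, and bars are gene spans. The 8 promoter calls lie 169 to 443 bp upstream, and cct-5 has 4 calls inside the gene.

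Genes that work with the chaperonin and with CDC-48 were looked up by the same rule. Of the 6 prefoldin genes, whose products deliver actin and tubulin to CCT, 4 had an IDR promoter call or 66.7%. They were pfd-1 with a pooled signal of 107.3, pfd-6 with 60.95, pfd-5 with 48.72 and pfd-3 with 40.66. The other 2 had promoter calls in the relaxed lists but not in the IDR list. The median signal of the 4 was 54.84.

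Of 16 tubulin genes, 7 or 43.8% had an IDR promoter call, with a median signal of 77.51. The strongest were tbb-1 with a pooled signal of 427.5 and rank 6, in the call shared with rib-2, and tba-2 with 261.9 and rank 59. tba-2 encodes an alpha-tubulin. In replicates 1 and 2 the signals of tba-2 were 162.7 and 112. tba-7 had 92.33 and tba-5 had 77.51 in the pooled list.

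CDC-48 cofactors are the proteins that bring substrates to the ATPase or act on them there. Of 15 such genes 6 or 40% had an IDR promoter call, with a median signal of 62.34. They were led by ubxn-3, which encodes a UBX domain protein, with a pooled signal of 100.9, and ufd-3 with 99.91. ufd-2, which encodes an enzyme that extends ubiquitin chains, had 75.05 and ubxn-2 had 49.64. ufd-1, named here after its value was seen, had 33.95 with rank 7444 and is among the weakest calls of the IDR list. None of these cofactor calls came near the 485 of cdc-48.1.

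The mitochondrial chaperonin was represented by hsp-60 and Y22D7AL.10, annotated in RefSeq as the mitochondrial heat shock protein of 10 kDa. Both had the same IDR call, with a signal of 71.49 in replicate 1, 44.59 in replicate 2 and 114.4 pooled, close to the pooled values of cct-7 and cct-8. All these counts stand beside the 23.4% of all protein-coding genes, and none was tested, since the lists were drawn up with earlier results from the same calls known.

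**Figure D5:**
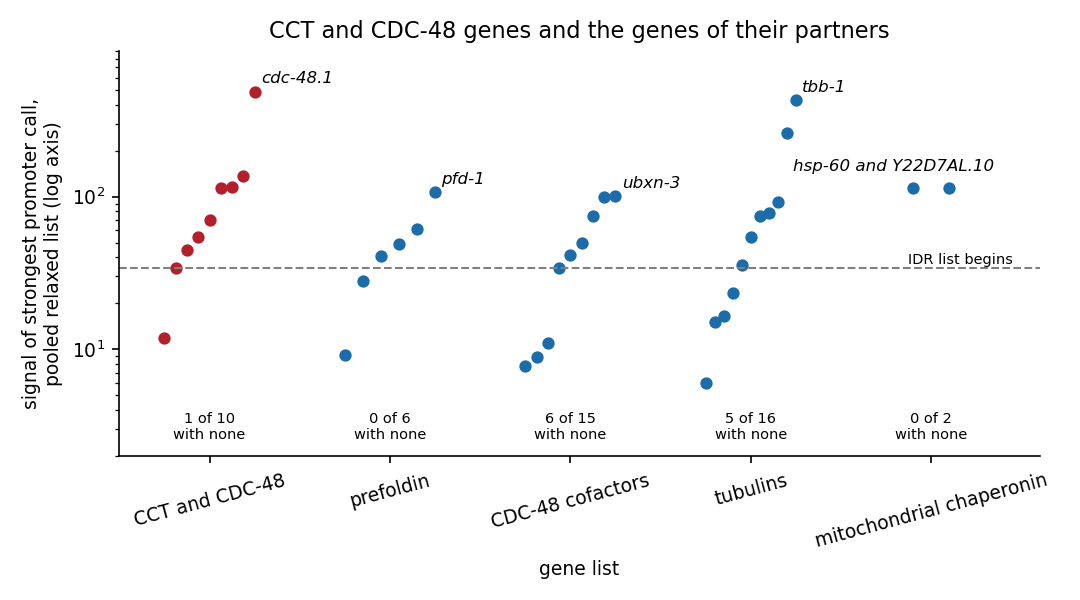
Signal of the strongest promoter call in the pooled relaxed list (log axis) for the CCT and CDC-48 genes (red) and for the genes of their partners (blue), 1 point per gene, with the number of genes that have no such call below each list. The dashed line is the lowest signal of the IDR list, 33.94, and the highest points are cdc-48.1 at 485 and tbb-1 at 427.5.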

How the data were processed

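FOS-1 ChIP-seq calls from whole L2 larvae were used as deposited, with 2 biological replicates per the labels. The authors made a relaxed list for each replicate and for the pooled replicates against a control, and an IDR-thresholded list, on ce11, per the deposited manifests. Column 7 holds the signal value that the authors deposited, not normalized between lists. The deposited −log10 q-value shares 1 ceiling over the whole IDR list, at 4.252, so calls were ranked by signal. The names of peak caller and aligner were not given in the sources used here. Neither ce10 lists, signal tracks nor the listed control experiment were analysed here.

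Summits were assigned to protein-coding transcript starts of Ensembl release 115 (WBcel235) with Python 3.11.15, pandas 2.3.3 and numpy 2.4.6. The 7446 IDR calls were the 7446 pooled calls of highest signal. Assignment and pattern search were checked on made-up genes and sequences. Patterns were searched on both strands within 50 bp of summits. The members, gene lists and patterns were chosen with earlier results of these data known, and no test was made. Genes named are all members, up to 4 of each partner list by pooled signal, genes that share a call with a member, and the 3 genes closest to cdc-48.1 and to cct-1. Neighbours of further calls, and ufd-1, were named after they were seen. The list of CDC-48 cofactors also holds the more distant relative cdc-48.3. Descriptions of neighbouring genes are those of RefSeq. Alternatives were other windows, margins and starts, overlap in place of summits, the 3723 strongest IDR calls, and each replicate alone.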

Additional observations from a re-analysis of the deposited data

How the results depend on the processing

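The count of 8 genes with a promoter call was the same with windows of 500 bp upstream and 100 bp downstream or 2000 bp upstream, with the outermost start, and with overlapping calls. The shares of all protein-coding genes were 18.6, 29.1, 21.7 and 24.7% in the same order. With each replicate alone the count ranged from 7 to 8, where cdc-48.2 was the gene lost without replicate 1. The shares of all genes were then 22.6% without replicate 1 and 23.2% without replicate 2. With the 3723 strongest IDR calls it was 5 of 10, against 12.6% of all genes, without cct-2, cct-5 and cdc-48.2. The count by span was 8 with a margin of 2 kb, against 39.8% of all genes. It ranged from 8 to 8 with each replicate alone, against 56.0% without replicate 1 and 56.8% without replicate 2. With the 3723 strongest calls it was 6, against 36.7%. With no margin it was 1 of 10, near the 9.2% of all genes, since only cct-5 had a call inside the gene. The median position of the 8 genes' promoter calls, the top 7.93% of the pooled list, ranged from 7.91 to 8.63% in the single replicates. The pattern counts stayed at 0 of 8 for AP-1, CRE, both GATA forms, the E-box and GACGCAGA and at 1 of 8 for the GAGA repeat in all 3 window sizes, while that of heat shock pairs ran from 5 to 7 as windows widened. No paired analysis was possible because there is 1 group. The read depth is unknown, so weak calls such as those at cct-4 and cdc-48.2 carry no error beyond the difference between replicates.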

Other observations

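The 8 promoter windows shared a few longer words, which were picked by looking at these windows and have no test. AAATTCGC was in 3 of the 8, at cct-2, cct-6 and cct-8, and in 0.497% of the 4222 IDR promoter summits. CTGGTGGCCG was shared by cct-2 and cct-7 and found at 4 of the 4222. TGAGAATATT was shared by cct-1 and cct-7 and found at 3, and at cct-1 it overlaps the heat shock pair. TTTTCTAGAA, which holds a heat shock pair, was shared by cct-5 and cct-6 and found at 7. All these counts over the 4222 summits include the windows that the words were taken from.

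The median GC content of the 8 windows was 44.1%, against 40.6% over all 7446 IDR summits, with 52.5% at cct-7 and 51.5% at cct-8. The 7446 summits are not limited to promoters, so these sets are unlike. The relaxed cct-4 call, in a window of the same size, had 19.8%.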
